A study of Mus musculus with 30 samples.

Results

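The 9 genes described here mark T cells, their main subsets and cell killing: Cd3e, Cd4, Cd8a, Cd8b1, Foxp3, Tbx21, Gata3, Gzma and Gzmb. They were taken by gene symbol and make up 9 of the 31023 genes in the count table. RNA was sequenced in bulk from the colon of C57BL/6 mice that were wild-type (WT) or lacked Smox, the gene for spermine oxidase, which turns the polyamine spermine into spermidine (Smox-/-). All mice were males bred in house, aged 8 to 12 weeks, and the study ran for 56 days with 3 mice in each group.

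There were 10 groups of 3 libraries. In the untreated state there was a WT and a Smox-/- group. WT and Smox-/- groups also received spermidine alone, dissolved at 14 mM in the drinking water until day 56. Further WT and Smox-/- groups received azoxymethane, a colon carcinogen, at 12.5 mg/kg into the peritoneum, and then dextran sulfate sodium, which injures the colon epithelium, at 4% in 3 cycles of 5 days each that started on days 5, 26 and 47 (AOM-DSS). Both genotypes were also given AOM-DSS together with spermidine. From these AOM-DSS mice the labelled tissue was non-tumor colon. The other two groups were tumors, from WT mice given AOM-DSS with spermidine and from Smox-/- mice given AOM-DSS alone, so the tumor groups differ in both genotype and spermidine. The remaining tumor combinations of genotype and spermidine were not analysed here. The labels name no sequencing batch, cage or date and do not tie tumors to the mice of the non-tumor samples.

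T cells recognise antigen through a receptor that signals through the CD3 chains, among them CD3 epsilon, the product of Cd3e. CD4 on helper and regulatory T cells and CD8 on cytotoxic T cells are co-receptors that bind the antigen-presenting molecule, and Foxp3, Tbx21 (T-bet) and Gata3 encode transcription factors of regulatory, type 1 and type 2 cells. In the gut many T cells sit within the epithelium and carry a CD8 made of 2 alpha chains, and innate lymphoid cells, mast cells and epithelium can also express some of these genes.

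Promoter sequences are shown for Cd3e, Cd8a, Foxp3, Gzma and Gzmb, the genes with a window that were called in the mean contrast of genotypes or of AOM-DSS below. RefSeq windows from 250 bases before to 50 bases after a start (mouse build GRCm38.p6) were found for 7 of the 9 genes, and Cd4 and Cd8b1 had none. Each window was searched on both strands for short cores that families of T cell transcription factors bind. The core searched for RUNX factors was TGTGGT and that for the T-box family was GGTGTG. Factors of the Gata family were searched with AGATAA. The ETS family was searched with AGGAAG. No match overlapped another in these windows. Capitals mark the matches, as letters only.
Cd3e, chr9:45009562-45009861, minus strand: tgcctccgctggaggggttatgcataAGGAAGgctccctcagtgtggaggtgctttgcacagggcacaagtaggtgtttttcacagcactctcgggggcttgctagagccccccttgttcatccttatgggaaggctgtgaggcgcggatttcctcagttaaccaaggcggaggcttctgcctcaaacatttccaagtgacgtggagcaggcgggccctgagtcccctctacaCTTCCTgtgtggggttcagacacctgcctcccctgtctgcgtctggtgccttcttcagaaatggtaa
Cd8a, chr6:71373177-71373476, plus strand: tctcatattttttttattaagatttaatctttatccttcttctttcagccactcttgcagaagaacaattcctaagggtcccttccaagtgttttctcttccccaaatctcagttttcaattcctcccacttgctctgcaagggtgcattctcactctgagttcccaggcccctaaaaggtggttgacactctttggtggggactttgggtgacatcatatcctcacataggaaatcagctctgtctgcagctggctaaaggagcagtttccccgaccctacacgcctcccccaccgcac
Foxp3, chrX:7579426-7579725, plus strand: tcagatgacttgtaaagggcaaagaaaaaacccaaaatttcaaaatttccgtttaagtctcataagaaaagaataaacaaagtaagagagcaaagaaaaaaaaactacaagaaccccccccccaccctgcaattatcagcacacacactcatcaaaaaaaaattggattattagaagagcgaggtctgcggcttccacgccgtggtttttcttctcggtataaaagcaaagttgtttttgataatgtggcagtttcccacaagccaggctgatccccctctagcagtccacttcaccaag
Foxp3, chrX:7580233-7580532, plus strand: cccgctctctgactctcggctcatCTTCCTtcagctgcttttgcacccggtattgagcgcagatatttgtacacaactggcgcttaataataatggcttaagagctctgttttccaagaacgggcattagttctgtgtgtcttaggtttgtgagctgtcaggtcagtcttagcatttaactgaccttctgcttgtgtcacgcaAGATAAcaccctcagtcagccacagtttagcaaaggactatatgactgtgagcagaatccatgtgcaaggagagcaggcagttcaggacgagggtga
Gzma, chr13:113100932-113101231, minus strand: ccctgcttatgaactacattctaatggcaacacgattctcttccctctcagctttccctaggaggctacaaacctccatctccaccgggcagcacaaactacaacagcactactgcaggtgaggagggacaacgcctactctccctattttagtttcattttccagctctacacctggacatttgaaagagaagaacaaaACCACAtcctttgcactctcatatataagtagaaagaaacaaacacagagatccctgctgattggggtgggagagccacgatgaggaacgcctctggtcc
Gzmb, chr14:56262285-56262584, minus strand: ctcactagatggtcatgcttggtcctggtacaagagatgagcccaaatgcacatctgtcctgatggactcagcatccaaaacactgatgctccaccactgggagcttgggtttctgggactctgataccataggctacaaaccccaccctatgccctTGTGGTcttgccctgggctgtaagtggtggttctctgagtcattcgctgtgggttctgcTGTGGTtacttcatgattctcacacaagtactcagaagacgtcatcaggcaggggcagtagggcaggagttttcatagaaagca
The Cd3e window held the ETS letters on the forward strand at position 27 of the window and on the reverse strand at position 234. The Gzma window held the RUNX letters on the reverse strand at position 201, and the Gzmb window held them on the forward strand at positions 158 and 217. Of 32851 windows of this length, 16.8% held the RUNX letters, 19% the T-box letters, 11.2% the Gata letters and 35.4% the ETS letters. The Tbx21 window held the ETS letters, the Gata3 window the T-box letters and the second Foxp3 window the Gata and ETS letters, while the Cd8a window and the first Foxp3 window held none of the 4.

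In the annotation of GRCm38 all 9 genes are protein-coding. Cd3e lies on chromosome 9 from 44998740 to 45009627, Cd4 on chromosome 6 from 124864692 to 124888221, and Cd8a and Cd8b1 close together on chromosome 6, from 71373427 to 71379173 and from 71322788 to 71337494. Foxp3 lies on chromosome X from 7573644 to 7595245, Tbx21 on chromosome 11 from 97098071 to 97115331 and Gata3 on chromosome 2 from 9857078 to 9890034. The granzymes lie on chromosome 13 from 113093825 to 113100981 (Gzma) and on chromosome 14 from 56258838 to 56262260 (Gzmb).

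All 9 genes were rare in these libraries. Library totals ran from 33060607 to 81011304 counts, and the 9 genes together received between 98 counts (the third WT library of AOM-DSS with spermidine, non-tumor) and 6376 counts (the first Smox-/- library of spermidine alone). Of the 270 values, 36 were under 10 counts and 3 were 0, all 3 of Cd8b1 in tumors. Levels are counts scaled to library size (CPM). Divided by the kilobases of exon, the median level over the 30 libraries was highest for the granzymes Gzma (1.08) and Gzmb (0.721), then Cd4 (0.413), Gata3 (0.215), Cd8a (0.213) and Cd3e (0.191). Cd8b1 (0.141), Tbx21 (0.106) and Foxp3 (0.0571) were lower. The estimated biological coefficient of variation of the 9 genes ran from 0.550 (Cd8a) to 0.646 (Tbx21).

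Some libraries stood apart. The first Smox-/- library of spermidine alone had the highest value of the 30 for 8 of the 9 genes, all but Gata3, and its 6 B cell markers (97.3 CPM in sum) and 8 lymphoid follicle markers (133 CPM) were also the highest. The third untreated WT library carried skeletal muscle markers at 7598 CPM in sum, and the first Smox-/- library of AOM-DSS with spermidine stood apart in earlier results of these data. The calls of the mean contrasts and the list counts are given with and without them. Markers of natural killer cells, 5 genes, summed to no more than 3.57 CPM in any library, with Klra8 at 0 in 20 of the 30. On the same scale Gzma and Gzmb averaged 1.96 and 2.02 CPM over the 30 libraries. Colon epithelium markers, 8 genes, summed to between 10406 and 21983 CPM. Smox itself ranged from 18.6 to 68.7 CPM in Smox-/- libraries and from 25.1 to 169 CPM in WT libraries, so the ranges over all conditions overlapped. It was lower in Smox-/- mice without overlap with spermidine alone (18.6 to 26.6 against 43.7 to 49.4 CPM) and after AOM-DSS (26.1 to 35.8 against 41.8 to 50.7 CPM). The same held for tumors (44.0 to 68.7 against 123 to 169 CPM). Untreated colon overlapped, and after AOM-DSS with spermidine the first Smox-/- library, at 63.1 CPM, lay above WT (46.6 to 54.1 CPM). The counts cover the whole gene, and the deleted part is not given in the sources used here.

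**Figure D1:**
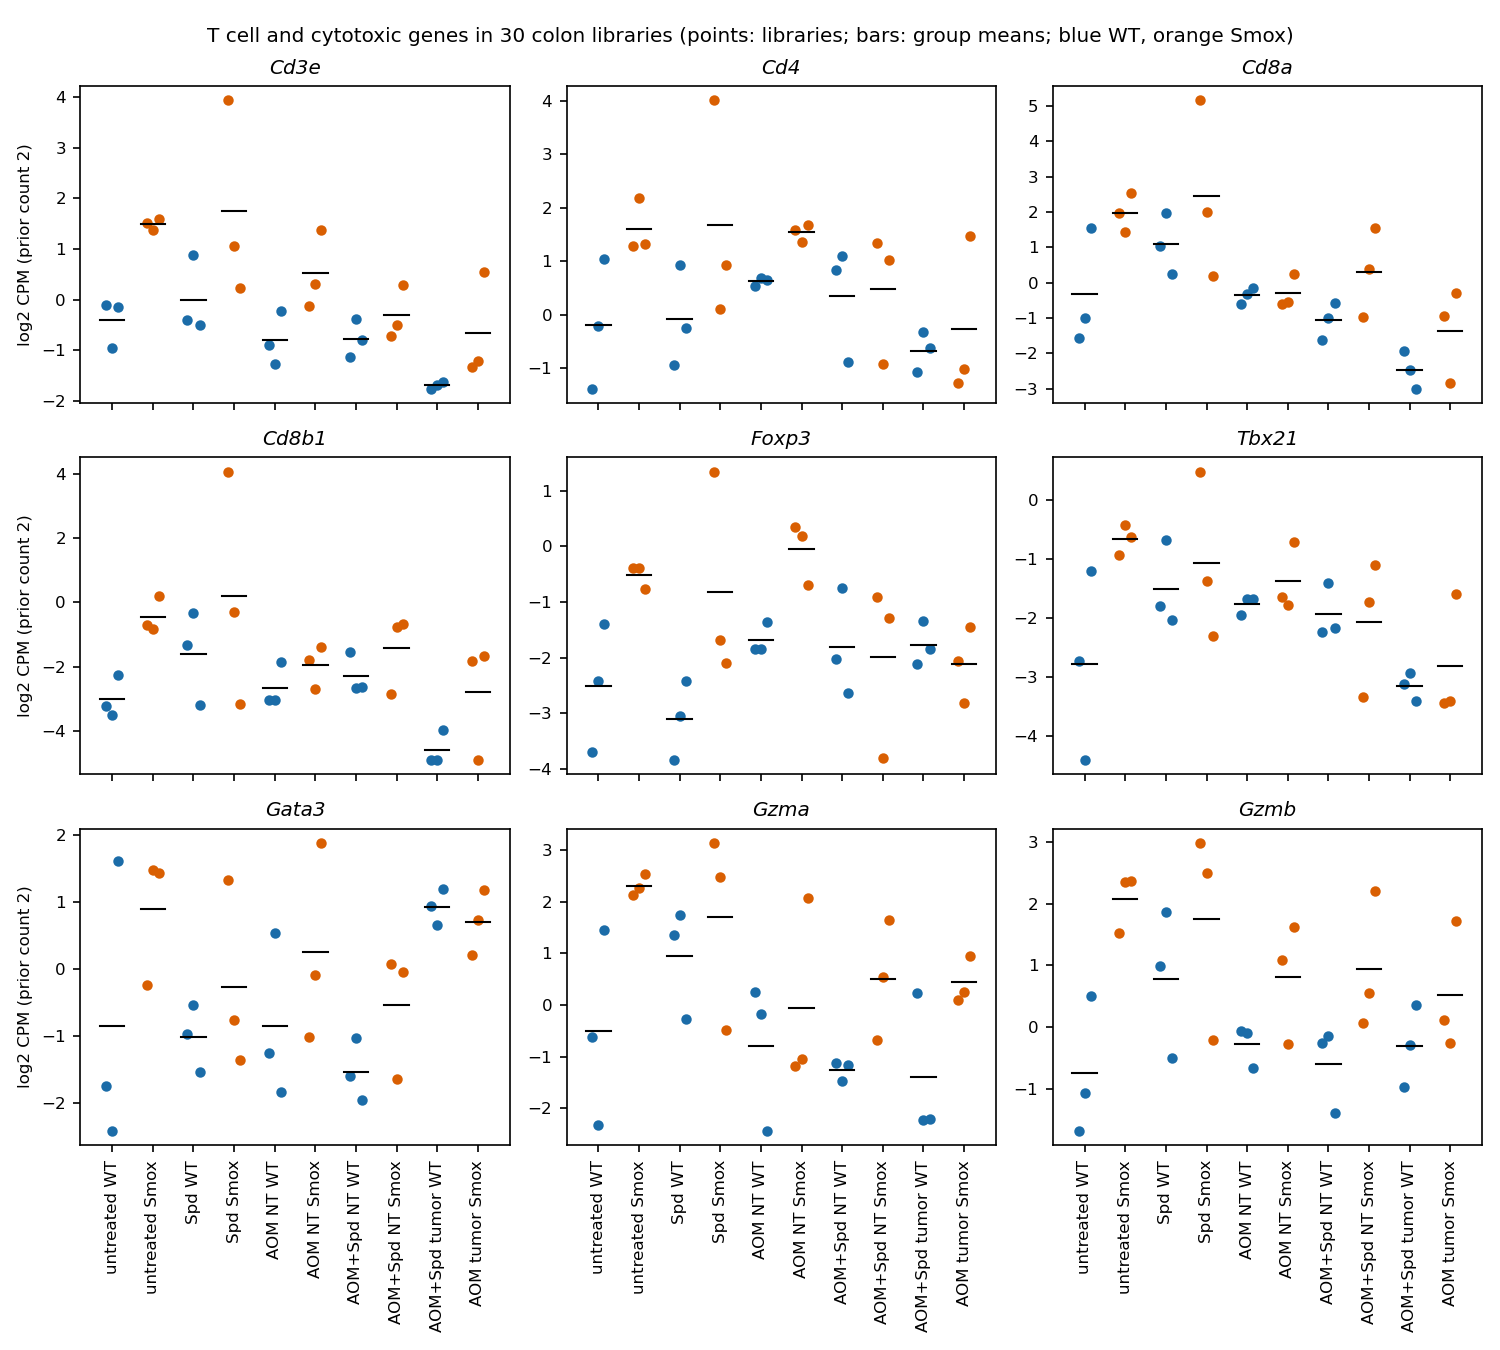
Level of each of the 9 genes in each of the 30 libraries, as log2 CPM with a prior count of 2, in 10 groups along the horizontal axis (NT, non-tumor; Spd, spermidine). Points are libraries, bars are group means, blue is WT and orange is Smox-/-; 1 Smox-/- library of spermidine alone is the highest for 8 of the 9 genes, and the untreated Smox-/- points lie above all untreated WT points for 7 of the 9.

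Cd3e, the marker of T cells as a whole, had its highest group means in Smox-/- colon. In untreated WT colon its libraries held 0.893, 0.485 and 0.866 CPM and in untreated Smox-/- colon 2.83, 2.57 and 2.97 CPM. With spermidine alone they held 0.729, 1.81 and 0.674 CPM in WT mice, and 15.2, 2.05 and 1.14 CPM in Smox-/- mice. In non-tumor colon after AOM-DSS the values were 0.506, 0.384 and 0.827 CPM in WT mice, and 0.884, 1.21 and 2.54 CPM in Smox-/- mice. The 2 genotypes did not overlap in the untreated state or after AOM-DSS, and overlapped with spermidine alone. After AOM-DSS with spermidine, Cd3e was at 0.567 ± 0.157 CPM (SD, n = 3) in WT and 0.813 ± 0.330 CPM (SD, n = 3) in Smox-/- colon. In tumors it was at 0.263, 0.278 and 0.292 CPM in WT mice, and 0.367, 0.400 and 1.44 CPM in Smox-/- mice. In the order of group means, from the Smox-/- spermidine group (6.14 ± 7.89 CPM, SD, n = 3) through untreated Smox-/- colon (2.79 ± 0.204 CPM, SD, n = 3) down to WT tumors (0.278 ± 0.0143 CPM, SD, n = 3), the only neighbours whose libraries did not overlap were untreated Smox-/- colon against Smox-/- colon after AOM-DSS (1.55 ± 0.880 CPM, SD, n = 3), and WT tumors against the group above them.

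Cd4, the co-receptor of helper and regulatory T cells and also present on some myeloid cells, had group means from 0.609 ± 0.163 CPM (SD, n = 3) in WT tumors to 3.13 ± 1.19 CPM in untreated Smox-/- colon and 6.32 ± 8.43 CPM in the Smox-/- spermidine group, where the first library held 16.0 CPM and the others 1.05 and 1.87 CPM. WT colon after AOM-DSS was narrow, with 1.41, 1.57 and 1.54 CPM, and lay below the 2.97, 2.54 and 3.17 CPM of Smox-/- colon after AOM-DSS.

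Cd8a, the alpha chain of CD8, ranged from 0.0921 CPM in a WT tumor to 35.5 CPM in the first Smox-/- spermidine library. Untreated WT libraries held 0.308, 0.472 and 2.89 CPM, the third being the library rich in muscle markers, and untreated Smox-/- libraries 3.88, 2.67 and 5.75 CPM. With spermidine alone the values were 2.02, 3.88 and 1.15 CPM in WT mice, and 35.5, 3.98 and 1.10 CPM in Smox-/- mice. After AOM-DSS they were 0.628, 0.768 and 0.865 CPM in WT mice, and 0.629, 0.657 and 1.14 CPM in Smox-/- colon, so the genotypes overlapped there. Each of these Smox-/- libraries was below each untreated Smox-/- library. Cd8b1, the beta chain that pairs with the alpha chain on conventional cytotoxic T cells, was scarcer. Its untreated libraries held 0.0732, 0.0555 and 0.173 CPM in WT mice, and 0.575, 0.528 and 1.11 CPM in Smox-/- mice. The first Smox-/- spermidine library held 16.6 CPM, against 0.786 and 0.0773 CPM in the other two of its group.

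Foxp3, the transcription factor that defines regulatory T cells, was at 0.0439, 0.153 and 0.346 CPM in untreated WT and 0.733, 0.732 and 0.553 CPM in untreated Smox-/- colon. After AOM-DSS it was at 0.244, 0.244 and 0.357 CPM in WT mice, and 1.24, 1.11 and 0.582 CPM in Smox-/- colon. With spermidine alone WT libraries held 0.0365, 0.0879 and 0.154 CPM, from 2 to 8 counts, and Smox-/- libraries 2.50, 0.277 and 0.201 CPM. The genotypes did not overlap in these 3 conditions, and overlapped after AOM-DSS with spermidine (0.301 ± 0.231 CPM in WT mice, and 0.306 ± 0.239 CPM in Smox-/- mice, SD, n = 3 each). Tbx21, which drives the type 1 program, stayed between 0.0139 and 1.37 CPM in all libraries, and its highest group mean outside the Smox-/- spermidine group was 0.609 ± 0.110 CPM (SD, n = 3) in untreated Smox-/- colon. Gata3, which drives the type 2 program and is also made by innate lymphoid cells, ranged from 0.153 to 3.64 CPM and was the one gene of the 9 with its highest library in another group, Smox-/- colon after AOM-DSS.

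Gzmb, a protease that cytotoxic cells release to kill their targets, was at 0.278, 0.444 and 1.39 CPM in untreated WT and 2.83, 5.04 and 5.11 CPM in untreated Smox-/- colon. With spermidine alone it was at 1.95, 3.62 and 0.674 CPM in WT mice, and 7.86, 5.59 and 0.835 CPM in Smox-/- mice. After AOM-DSS with spermidine it was at 0.800, 0.876 and 0.349 CPM in WT mice, and 1.01, 1.44 and 4.56 CPM in Smox-/- colon. These last groups did not overlap, and those of spermidine alone did. Gzma, a granzyme of the same granules with another cleavage preference, was at 0.615, 0.166 and 2.71 CPM in untreated WT and 4.34, 4.77 and 5.73 CPM in untreated Smox-/- colon. After AOM-DSS with spermidine it was at 0.425, 0.328 and 0.413 CPM in WT mice, and 0.592, 1.4 and 3.08 CPM in Smox-/- colon, again without overlap.

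The first question was whether loss of Smox changed these genes. In the mean of the 4 non-tumor conditions, Cd3e, Cd8b1, Foxp3 and Gzmb rose in Smox-/- colon, so that a marker of all T cells, the beta chain of CD8, the regulatory factor and a granzyme were among the 4 called. In edgeR's quasi-likelihood test, with Benjamini-Hochberg adjustment over all 19558 genes tested and a threshold of 0.05, 4 of the 9 genes passed, all higher. The background in this contrast was 5.78% of all genes called and 3.75% called higher. Cd3e was 3.01-fold higher (log2 change 1.59, SE 0.35, adjusted p = 0.0117) and Gzmb 3.29-fold (1.72, SE 0.40, adjusted p = 0.0142). Foxp3 was 3.42-fold higher (1.77, SE 0.44, adjusted p = 0.0191) and Cd8b1 4.46-fold (2.16, SE 0.63, adjusted p = 0.0450). Of the 5 genes that did not pass, Cd8a had a log2 difference of 1.53 (SE 0.47, adjusted p = 0.0575), Gzma 1.65 (SE 0.52, 0.0611) and Cd4 1.32 (SE 0.44, 0.0742). Gata3 had 1.14 (SE 0.47, 0.156) and Tbx21 0.80 (SE 0.41, 0.269). The p-values rest on the spread between libraries within groups, estimated over all 10 groups in 1 model. In bulk tissue, more cells of a type and more RNA per cell cannot be told apart.

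The call of Cd3e and of Gzmb held in each of the 31 alternative analyses, with adjusted p from 0.000397 to 0.0302 and from 0.000459 to 0.0346. Foxp3 was lost in 1 of 31, without the first Smox-/- spermidine library (2.35-fold, adjusted p = 0.0665). By DESeq2 7 of the 9 passed, against 11.1% of all genes. Cd8b1 passed in 7 of 30 and was lost on leaving out any of 20 single libraries, with adjusted p from 0.00741 to 0.212. Without the 3 libraries that stand apart, the fold of Cd3e was 2.27 (adjusted p = 0.0250), of Foxp3 2.50 (0.0413), of Gzmb 3.74 (0.0118), of Cd8a 2.71 (0.0180) and of Gzma 3.93 (0.0334), all 5 called, and Cd8b1 was not called (2.80-fold, 0.112). Without the third untreated WT library 8 of the 9 passed, all but Tbx21. Without the first Smox-/- spermidine library 2 passed, Cd3e (2.12-fold, adjusted p = 0.0302) and Gzmb (2.93-fold, adjusted p = 0.0346). Calls over all genes moved as well: 1131 with all libraries, 669 to 1777 with 1 left out, and 942 without the 3 that stand apart.

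**Figure D2:**
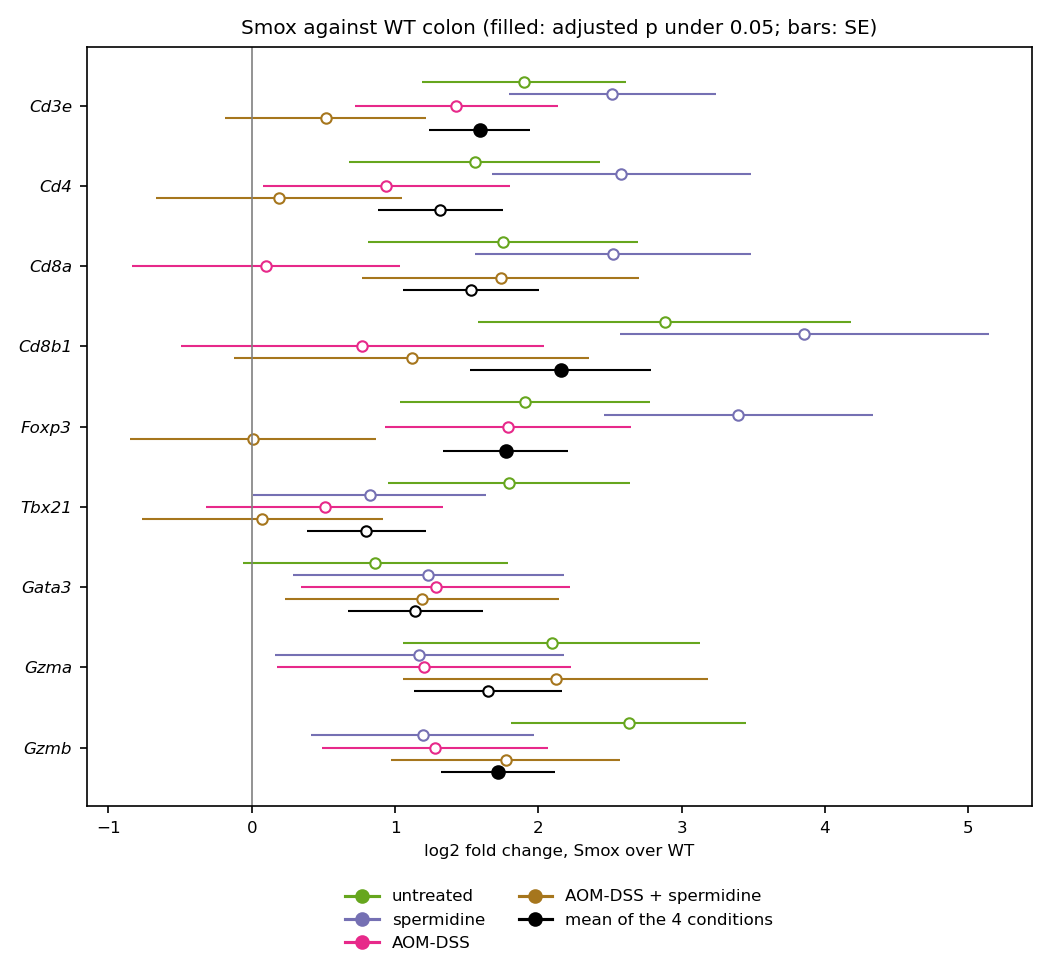
Log2 fold change of Smox-/- over WT for each gene, in each of the 4 non-tumor conditions (colours) and in their mean (black), with bars of 1 SE from the edgeR model. Filled points have an adjusted p under 0.05: Cd3e, Cd8b1, Foxp3 and Gzmb in the mean of the conditions, and none within a condition, while all 36 values within a condition lie above 0.

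Within single conditions none of the 9 passed. In untreated colon 0 of 9 were called by edgeR (5.95% of all genes), 5 reached 0.05 before adjustment, and with DESeq2 (13.7% of all genes) Gzmb was called, whose edgeR fold was 6.19 (log2 change 2.63, SE 0.82, adjusted p = 0.0559). In 7 of the 9 the untreated Smox-/- libraries lay above all WT libraries, which was so for 14% of all genes, the exceptions being Cd8a and Gata3. With spermidine alone edgeR called 0 (0.0818% of all genes), 5 reached 0.05 before adjustment, and with DESeq2 (1.18%) Cd3e and Foxp3 were called. Without the first Smox-/- library of that group edgeR gave Cd3e a log2 difference of 0.54 and Foxp3 one of 1.31, both with an adjusted p of 0.949. Foxp3, 1 of 9, lay higher without overlap, against 11.9% of all genes. After AOM-DSS it called 0 (0.0665%), 1 reached 0.05 before adjustment and with DESeq2 0 were called. Cd3e, Cd4 and Foxp3, 3 of 9, lay higher without overlap, against 6.35% of all genes. After AOM-DSS with spermidine it called 0 (0.251%), 1 reached 0.05 before adjustment and with DESeq2 0 were called. Gzma and Gzmb, 2 of 9, lay higher without overlap, against 7.93% of all genes. The sign was the same throughout: all 9 genes were higher in Smox-/- colon in 4 of 4 conditions, as were 12.4% of all genes tested. The sizes varied within that. Foxp3 ranged from a log2 difference of 0.0066 (AOM-DSS with spermidine) to 3.40 (spermidine alone), and Cd8a from 0.10 (AOM-DSS) to 2.52 (spermidine alone).

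Markers of other cells moved with genotype as well. The 6 B cell markers summed to between 1.36 and 7.91 CPM in untreated WT and between 13.4 and 36.9 CPM in untreated Smox-/- libraries, and the 8 follicle markers to between 2.80 and 7.70 CPM and between 12.4 and 23.5 CPM. After AOM-DSS the order was not the same: B cell markers ran from 5.24 to 53.6 CPM in WT mice, and from 13.5 to 38.2 CPM in Smox-/- colon, while Cd3e was higher in Smox-/- libraries. In the mean of the conditions 0 of 6 B cell and 0 of 8 follicle markers were called, with medians of 0.40 and 0.46 on the log2 scale, beside 1.59 for the 9 genes and 0.031 for all genes. Mast cell markers (2 of 7 called higher), macrophage markers (2 of 5) and dendritic cell markers (1 of 6) were called in part. The 5 markers of natural killer cells summed to between 0.264 and 1.19 CPM in untreated WT libraries. In untreated Smox-/- libraries they summed to between 1.66 and 3.45 CPM. In the other non-tumor conditions these sums overlapped between the genotypes. Among these 5 markers, Eomes was called higher by edgeR in the mean of the conditions (3.54-fold, adjusted p = 0.0316). Il1rl1, used here as a marker of type 2 innate lymphoid cells, was called higher there too (5.74-fold, adjusted p = 0.0199). Squamous epithelium markers (1 of 7 called higher) summed to between 4.62 and 2649 CPM in untreated Smox-/- and between 3.01 and 25.6 CPM in untreated WT libraries. Smooth muscle markers summed to between 4857 and 7559 CPM in untreated WT and between 1039 and 3294 CPM in untreated Smox-/- libraries. Epithelium markers summed to between 13390 and 14539 CPM and between 16860 and 17571 CPM in the same groups. Neither of these sums overlapped between the untreated genotypes, and in the mean of the conditions 0 of 6 and 0 of 8 of these markers were called. The part of these cells and tissues in the genotype result was not tested.

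**Figure D3:**
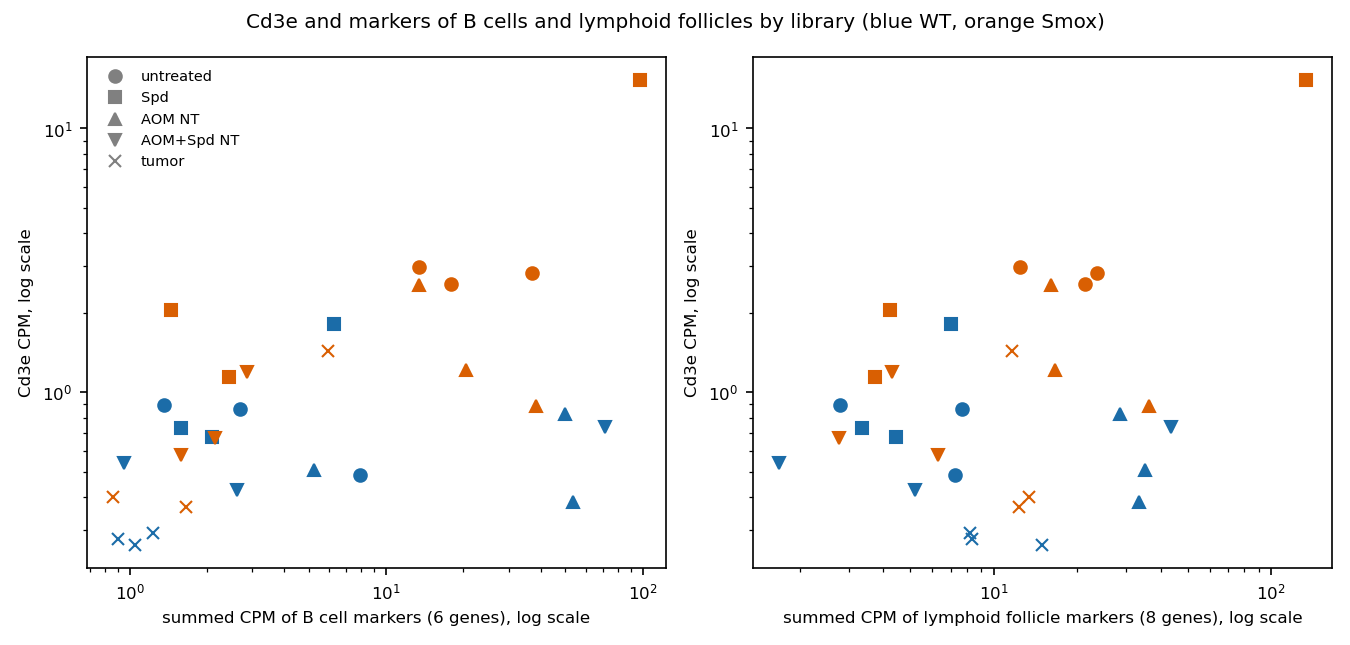
Cd3e in CPM (vertical axis, log scale) against the summed CPM of 6 B cell markers (left) and 8 lymphoid follicle markers (right), both on log scales, in the 30 libraries; blue is WT, orange is Smox-/-, and the symbol gives the treatment. The first Smox-/- spermidine library is at the upper right in both panels, and the WT libraries after AOM-DSS combine follicle markers of 28.4 to 35.1 CPM with Cd3e under 1 CPM.

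Lists of other T cell genes, chosen with earlier results of these data known, were read in the same contrast of genotypes. In it 3.75% of all genes tested were called higher and 55% had a positive sign. Of 28 core T cell genes, Cd3e among them, 10 rose and all 28 had a positive sign (median 1.45 on the log2 scale, beside 0.031 for all genes tested). Il7r, the interleukin-7 receptor that keeps T cells alive, was 3.74-fold higher (adjusted p = 0.0105) and Cd247, the zeta chain of the receptor complex, 3.17-fold (0.0107). Of 14 genes of CD8 and intraepithelial T cells, 6 rose. Trdc, the constant part of the delta chain of gamma-delta T cells, was 2.91-fold higher (adjusted p = 0.000278), Itgae, an integrin that ties T cells to epithelium, 2.53-fold (0.00149), and Tcrg-C1, of the gamma chain, 2.80-fold (0.00630). Of 14 tested genes of helper and regulatory T cells, 3 rose, Il2ra (2.60-fold, adjusted p = 0.0185), Foxp3 and Ctla4 (2.68-fold, 0.0228), and Ikzf2 fell 1.68-fold (0.0340) at mean levels of 16.0 and 26.1 CPM.

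Beside the background of 3.75% of all genes called higher, the type 1 list had 3 of 10 genes higher. Cxcr6 (3.14-fold, adjusted p = 0.00464) and Il18rap were among them, and the defining factor Tbx21 was not called. Of 6 tested type 2 genes 1 rose, Il1rl1, the interleukin-33 receptor (5.74-fold, adjusted p = 0.0199), which innate lymphoid and mast cells also make, and of 5 tested type 17 genes 2 rose, Il17a and Batf. Il17a had a count of 0 in all untreated WT libraries, so no fold is given. Of 16 tested genes of cytotoxic granules and killer receptors 5 rose, among them Gzmb, Srgn, the granule proteoglycan (2.87-fold, adjusted p = 0.0153), and Serpinb9, which protects cells from granzyme B (1.58-fold, 0.0249). Of 7 inhibitory receptor genes 3 rose, Lag3 (2.14-fold, adjusted p = 0.00547), Pdcd1 (2.71-fold, 0.0244) and Havcr2 (2.13-fold, 0.0476). Without the first Smox-/- spermidine library the counts called higher were 4 of 28 core, 3 of 14 CD8 and intraepithelial, 0 of 14 helper and regulatory, and 2 of 18 cytotoxic genes, and 1 each of 10 type 1, 6 type 2, 7 type 17 and 7 inhibitory receptor genes. Without the 3 libraries that stand apart they were 5 of 28, 6 of 14, 2 of 14 and 3 of 18, then 1 of 10, 1 of 6, 0 of 7 and 1 of 7. Over all genes 514 of 19802 were called higher in that setting. The share of all genes called higher without the first Smox-/- spermidine library alone is not given here. With 1 library left out, calls over all genes in both directions ran from 669 to 1777, beside 1131 with all libraries. In untreated colon alone, where none of the 9 genes passed and 2.63% of all genes were called higher, 2 of the 14 CD8 and intraepithelial genes rose, Itgae (4.68-fold, adjusted p = 0.0204) and Trdc (4.60-fold, 0.0204). There 3 of 10 type 1 genes rose (Stat4, Cxcr6 and Il18rap), 2 of 16 cytotoxic genes (Klrc1 and Srgn), 1 of 14 helper and regulatory genes (Il2ra), 1 of 5 type 17 genes (Il17a) and none of the core, type 2 and inhibitory receptor genes. Without the third untreated WT library and the first Smox-/- library of AOM-DSS with spermidine, Trdc and Il17a were the ones of these still called, and calls over all genes in untreated colon fell from 1164 to 32.

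The second question was how the genes stood in non-tumor colon after AOM-DSS. In the mean over both genotypes with and without spermidine, Cd3e, Cd8a and Gzma fell, while Foxp3 was the one gene of the 9 with a positive sign (log2 difference 0.31, SE 0.42, adjusted p = 0.643). By edgeR 3 of 9 passed, all lower, against a background of 20.9% of all genes called and 12.2% called lower. Cd8a was 4.37-fold lower (log2 change -2.13, SE 0.48, adjusted p = 0.00368), Gzma 2.99-fold lower (-1.58, SE 0.52, 0.0330) and Cd3e 2.41-fold lower (-1.27, SE 0.35, 0.0140). Cd8b1 had -1.50 (SE 0.63, adjusted p = 0.0909), Gzmb -0.89 (SE 0.39, 0.108), Gata3 -0.55 (0.425), Tbx21 -0.50 (0.415) and Cd4 -0.26 (0.700). The calls of Cd3e and Cd8a held in 30 of 31 alternative analyses and that of Gzma in 21 of 31. Without the first Smox-/- spermidine library Cd3e was 1.71-fold lower (adjusted p = 0.0498) and Cd8a 2.88-fold lower (0.0124). Without all 3 libraries that stand apart, a setting chosen after seeing the data, 0 of 9 passed, with Cd8a at 1.99-fold lower (adjusted p = 0.0536), Cd3e at 1.61-fold (0.129) and Gzma at 1.87-fold (0.265). Over all genes 2432 were called in that setting, beside 4086 with all libraries. The call of Gzma was also lost on leaving out any of 8 single libraries.

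Squamous epithelium markers (6 of 7 called lower) and skeletal muscle markers (6 of 6) fell in the same contrast, and 2 of 6 smooth muscle markers did. Skeletal muscle markers summed to between 3.42 and 14.7 CPM in the 12 non-tumor libraries after AOM-DSS, and to between 16.1 and 7598 CPM in the 12 without it. B cell markers (0 of 6 called) had a positive median of 0.40. The part of these tissues in the result was not tested.

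**Figure D4:**
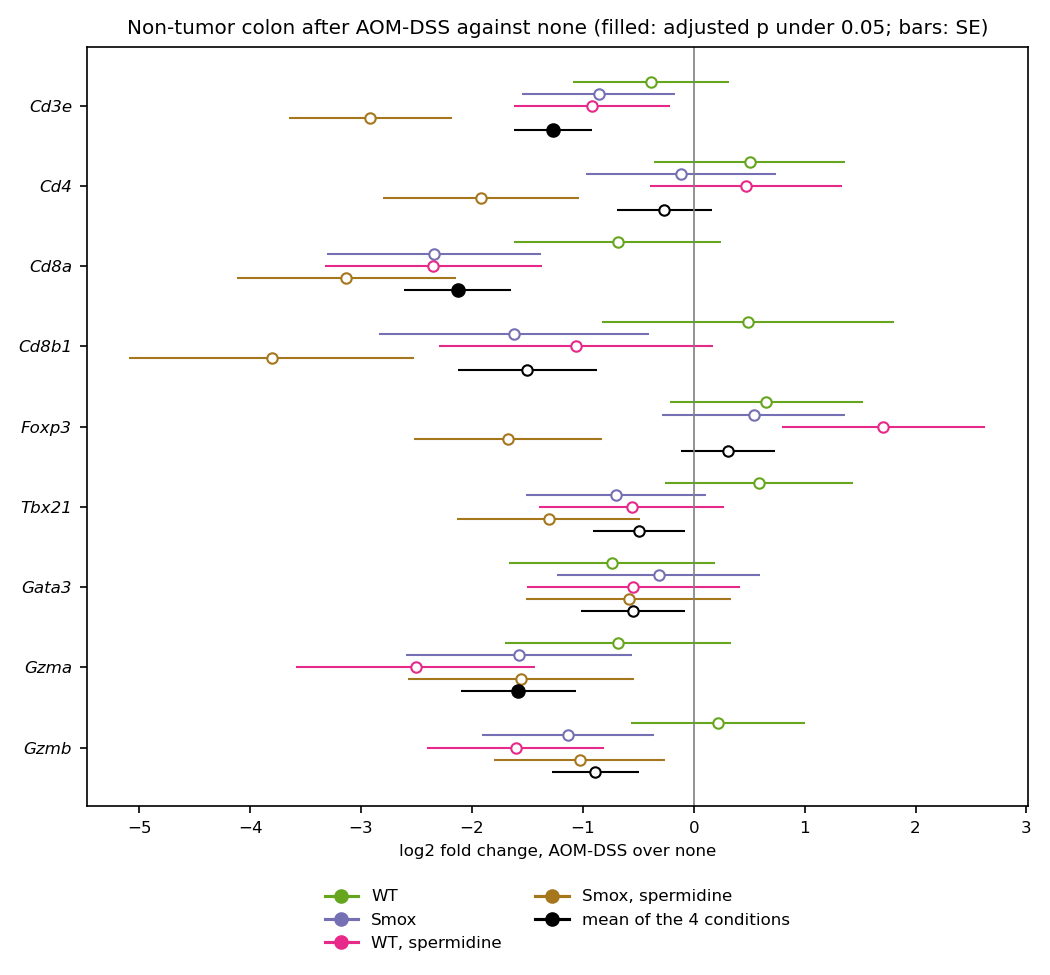
Log2 fold change of non-tumor colon after AOM-DSS over colon without it, for each gene in WT and Smox-/- mice with and without spermidine (colours) and in the mean of the 4 (black), with bars of 1 SE from the edgeR model. Filled points have an adjusted p under 0.05, which holds for Cd3e, Cd8a and Gzma in the mean and for no gene within a condition. Cd8a lies below 0 in all 4 conditions, in WT mice without spermidine only through the third untreated library.

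Within conditions edgeR called 0 of 9 in each case. The share of all genes called was 6.44% in WT, where 0 members had an unadjusted p under 0.05, and 0.0767% in Smox-/- mice, where 1 had. With spermidine it was 1.91% in WT, where 2 members had an unadjusted p under 0.05, and 0.0205% in Smox-/- mice, where 4 had. DESeq2 called 0 in the first 3 and Cd3e, Cd8a and Cd8b1 (3.83% of all genes) in Smox-/- mice with spermidine, the group that holds the library with the highest values. In Smox-/- mice Cd3e, Cd8a, Cd8b1 and Gzma, 4 of 9, lay lower after AOM-DSS without overlap, which was so for 12% of all genes. In WT mice with spermidine Cd8a and Gzma, 2 of 9, lay lower without overlap, near the 19.1% of all genes that did, and their log2 differences were -2.35 (SE 0.98) and -2.51 (SE 1.08). Cd3e, Cd8a, Gata3 and Gzma were lower in 4 of 4 conditions, and 14.6% of all genes were. In WT mice without spermidine, the signs of Cd8a, Gata3 and Gzma rested on the third untreated library, the one rich in muscle markers. It held 2.89, 3.02 and 2.71 CPM of them, against at most 0.472, 0.264 and 0.615 CPM in the others of its group. The WT means after AOM-DSS were 0.754, 0.680 and 0.719 CPM. In the mean contrast without that library, Gata3 had a log2 difference of 0.077. Cd4 and Foxp3 had positive differences in WT mice, 0.50 and 0.66 without spermidine and 0.47 and 1.71 with it, none of them called.

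In the same lists, where the background is 12.2% of all genes called lower, 7 of 28 core T cell genes fell after AOM-DSS in the mean contrast and none rose (median -0.85, beside 0.0049 for all genes). Thy1, a surface protein of T cells and also of stroma, was 2.24-fold lower (adjusted p = 0.00275) and Cd96, a receptor of T and natural killer cells, 2.69-fold lower (0.0142). Of 14 CD8 and intraepithelial genes 7 fell, Tcrg-C2 (3.31-fold, adjusted p = 0.00110), Tcrg-C4 (2.81-fold, 0.00249) and Cd8a with the smallest p. Of 16 cytotoxic genes 3 fell, Ctsw, a protease of cytotoxic cells (2.66-fold, adjusted p = 0.0156), Gzmk (3.14-fold, 0.0187) and Gzma. Of 14 helper and regulatory genes 2 fell, Ikzf2 and Zbtb7b, the latter at mean levels of 212 and 301 CPM, and of 10 type 1 genes 2 fell, Il18r1 and Il12rb2. None of the 7 inhibitory receptor genes was called by edgeR. Without the 3 libraries that stand apart, 1 of 28 core genes, Thy1, and 3 of 14 CD8 and intraepithelial genes, Trdc, Tcrg-C2 and Tcrg-C4, were called, and 0 of 18 cytotoxic genes were. Over all genes 1293 of 19802 were called lower in that setting.

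The spermidine groups gave no call in any of the 9 genes. By edgeR, 0 of 9 passed in WT mice (0.00511% of all genes called), in Smox-/- mice (0%), in WT mice after AOM-DSS (0%), in Smox-/- mice after AOM-DSS (0%) and in the mean of the 4 (0%), and DESeq2 called 0 of 9 in each. At an unadjusted p under 0.05 there were 0, 1, 0, 0 and 2 of the 9. In the mean contrast Cd8b1 had a log2 difference of 1.55 (adjusted p = 0.307) and Gata3 one of -1.08 (adjusted p = 0.347), and Gata3 had a negative sign in all 4 comparisons. In Smox-/- colon after AOM-DSS, Cd4 and Foxp3, 2 of 9, lay lower with spermidine without overlap, against 8.29% of all genes. Foxp3 was at 1.24, 1.11 and 0.582 CPM without spermidine and 0.500, 0.0383 and 0.379 CPM with it (log2 difference -1.66, adjusted p = 0.391), where the second of these libraries held 2 counts. In that group Cd8a (0.93) and Cd8b1 (0.79) had the opposite sign.

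The differences between genotypes in these responses were tested as interactions. EdgeR called 0 of 9 for the spermidine response (2.91% of all genes called), for the spermidine response after AOM-DSS (0%), for the AOM-DSS response (0%) and for the AOM-DSS response with spermidine (0%), DESeq2 called 0 in each, and at an unadjusted p under 0.05 there were 0, 0, 0 and 1. The largest values were those of Foxp3 for the AOM-DSS response with spermidine (-3.39, adjusted p = 0.637) and Cd8b1 for the same interaction (-2.74, adjusted p = 0.970).

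Tumors differed from non-tumor colon in many genes, and none of the 9 passed there. In WT tumors Gata3, 1 of 9, lay above all libraries of non-tumor colon, which was so for 28.3% of all genes. WT tumors held 1.87, 1.54 and 2.24 CPM of Gata3 and non-tumor colon of the same treatment 0.294, 0.454 and 0.222 CPM, without overlap. The fold was 5.73 (log2 difference 2.52, SE 0.98) and did not pass (edgeR adjusted p = 0.0511), while DESeq2 and a fit of these groups alone did call it. In the same tumors Cd3e, Cd8a, Cd8b1 and Tbx21, 4 of 9, lay below all non-tumor libraries, which was so for 27.3% of all genes. The log2 differences were -1.03 (SE 0.72) for Cd3e, -1.55 (SE 1.01) for Cd8a and -1.55 (SE 0.89) for Tbx21. Cd8b1 had counts of 0, 0 and 2 in WT tumors and of 19, 8 and 4 in non-tumor colon (adjusted p = 0.0718). A count of 0 allows up to 3 counts, or 0.0493 and 0.0491 CPM in these 2 tumors, and covers counting error only. The granzymes had log2 differences of 0.36 (Gzma) and 0.29 (Gzmb), neither called. Gzma was at 1.13, 0.180 and 0.184 CPM in WT tumors and 0.425, 0.328 and 0.413 CPM in non-tumor colon. Its positive sign rested on 1 tumor.

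Smox-/- tumors after AOM-DSS alone did not show the same for Gata3: they held 1.11, 1.62 and 2.22 CPM beside 0.459, 0.899 and 3.64 CPM in non-tumor colon (log2 difference -0.01, SE 0.92). Foxp3 was at 0.205, 0.108 and 0.334 CPM in these tumors and at 1.24, 1.11 and 0.582 CPM in non-tumor colon, without overlap, as were 21.5% of all genes, 4.51-fold lower (log2 difference -2.17, SE 0.87, adjusted p = 0.0674). In WT mice the Foxp3 difference was -0.20 (SE 0.85). No test compared the 2 tumor contrasts, since genotype and spermidine differ between them at once. EdgeR called 0 of 9 in WT tumors (34.4% of all genes called, 2 of the 9 with an unadjusted p under 0.05), 0 in Smox-/- tumors (24.6%, 1 with such a p) and 0 between Smox-/- and WT tumors (0.0614%, 1 with such a p). DESeq2 called Cd8b1 and Gata3 in the first (38.8% of all genes), Foxp3 in the second (30.9%) and 0 in the third. Between the tumors only Cd3e did not overlap, 1 of 9 against 4.7% of all genes, with the Smox-/- values above the WT ones (log2 difference 1.39, SE 0.72, adjusted p = 0.921). Cd4 passed in Smox-/- tumors without the library numbered 3, in which Cd4 was at 2.76 CPM against 0.381 and 0.462 CPM in the other two.

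**Figure D5:**
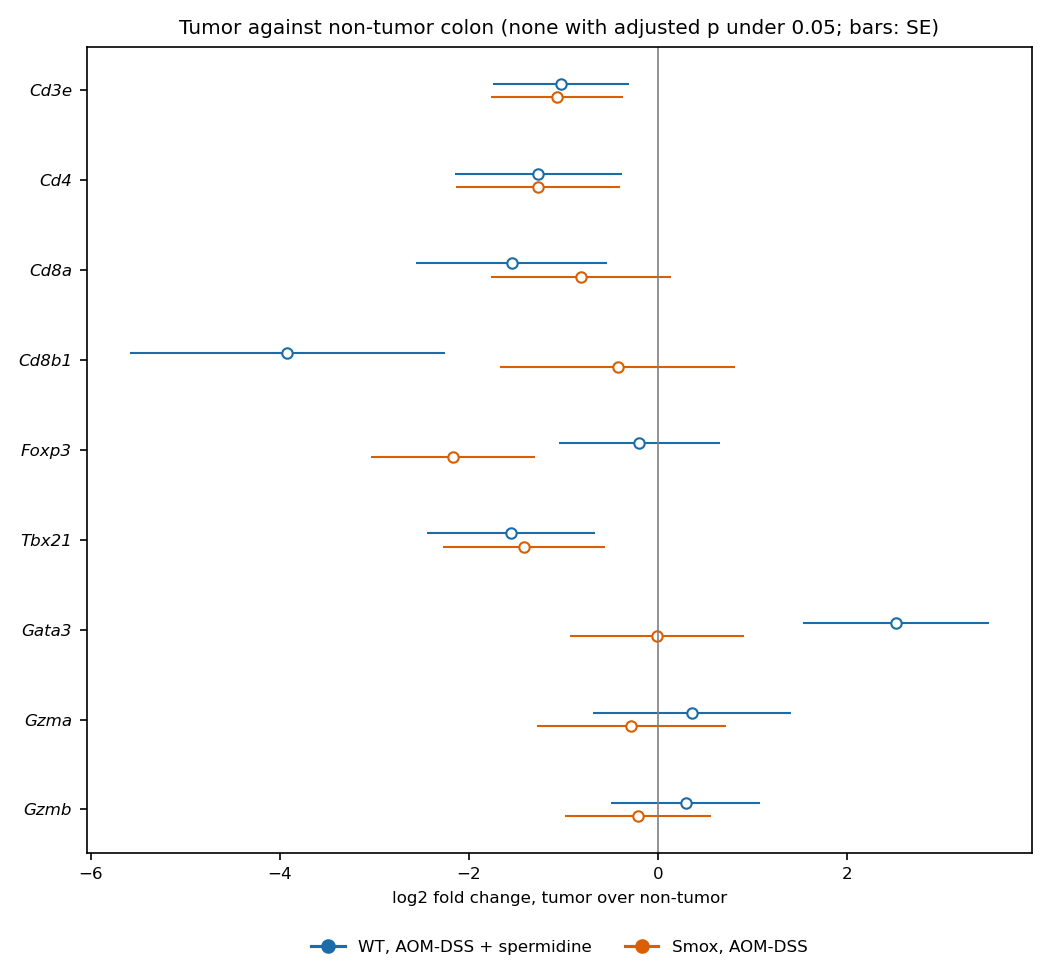
Log2 fold change of tumor over non-tumor colon for each gene in WT mice given AOM-DSS with spermidine (blue) and in Smox-/- mice given AOM-DSS (orange), with bars of 1 SE from the edgeR model. No point has an adjusted p under 0.05; Gata3 lies at 2.52 in WT and at -0.01 in Smox-/- mice, and Cd8b1 in WT tumors rests on 2 counts.

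B cell markers fell in WT tumors (5 of 6 called lower, between 0.900 and 1.23 CPM in sum) and so did smooth muscle markers (6 of 6), while 6 of 7 mast cell markers and 2 of 5 markers of type 2 innate lymphoid cells rose. Of all genes, 17.5% were called lower and 16.9% higher in this contrast. Innate lymphoid markers summed to between 57.5 and 87.6 CPM in WT tumors and between 21.0 and 30.3 CPM in the non-tumor colon of the same treatment. Of these 5 markers, Areg and Il1rl1 averaged 36.2 and 17.6 CPM over the 30 libraries. Rora averaged 3.91, Klrg1 0.104 and Ptgdr2 0.0929 CPM, so the sum mostly follows Areg and Il1rl1. Ptgdr2, which such cells carry, was 5.30-fold higher (adjusted p = 0.0413), at 0.189 against 0.0370 CPM. The part of innate lymphoid cells in the Gata3 values was not tested. The list of core T cell genes gave 4 genes higher in each tumor contrast, Zap70, Lef1, Tcf7 and Bcl11b, and none lower, beside 16.9% of all genes called higher in WT and 11.4% in Smox-/- tumors. In WT tumors Zap70 was at 14.8 CPM and Lef1 at 41.1 CPM on average, where Cd3e was at 0.278 CPM, and Lef1 and Tcf7 are also known as partners of beta-catenin in epithelium. The median of that list was -0.83 in WT and -0.57 in Smox-/- tumors, so most of its genes had the sign of Cd3e.

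Ratios between genes of 1 library compare transcripts without the scale of the library. They need not give the balance of T cell subsets, since other cells also make Cd4 and Gata3. Cd4 over Cd3e lay between 0.393 and 2.33 in untreated WT colon and between 1.86 and 4.09 in WT colon after AOM-DSS. In Smox-/- mice it lay between 0.831 and 1.75 in untreated colon and between 1.25 and 3.37 after AOM-DSS. Cd8a over Cd4 lay between 1.43 and 4.11 in WT mice with spermidine alone, between 0.444 and 0.561 in WT colon after AOM-DSS, and between 0.211 and 0.361 in Smox-/- colon after AOM-DSS. With spermidine as well as AOM-DSS it spread from 0.167 to 1.25 in WT and from 0.189 to 2.54 in Smox-/- mice, and with spermidine alone from 0.587 to 3.79 in Smox-/- mice. It lay between 0.567 and 1.43 in untreated WT and between 0.592 and 2.33 in untreated Smox-/- colon, and these ranges overlapped. Foxp3 over Cd4 lay between 0.400 and 0.468 in WT tumors and between 0.120 and 0.269 in non-tumor colon of the same treatment. In Smox-/- tumors it lay between 0.121 and 0.538, which overlapped the 0.184 to 0.435 of Smox-/- non-tumor colon of the same treatment. Gata3 over Cd3e lay between 5.53 and 7.68 in WT tumors and between 1.55 and 4.04 in Smox-/- tumors. It reached 0.692 in non-tumor colon of WT mice given AOM-DSS with spermidine and 1.43 in that of Smox-/- mice given AOM-DSS alone. In WT colon after AOM-DSS alone it reached 3.68, and in untreated WT colon 3.49. Cd8b1 over Cd8a reached 0.468 in the first Smox-/- spermidine library and lay between 0.148 and 0.197 in untreated Smox-/- colon. It was higher elsewhere, at 1.06 (19 over 18 counts) in the first WT non-tumor library given both AOM-DSS and spermidine. The first Smox-/- tumor also had a higher value, 0.515 (17 over 33 counts). A high ratio was thus not particular to the first Smox-/- spermidine library. In the first Smox-/- spermidine library Ccr7, which naive T cells and B cells use to enter lymphoid tissue, had 1125 counts.

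Pearson's r of log2 CPM over the 30 libraries ran from 0.15 (Cd8b1 and Gata3) to 0.89 (Cd8a and Cd8b1) in the 36 pairs, with a median of 0.67. Without the first Smox-/- spermidine library it ran from 0.0027 to 0.84 in the same pairs, with a median of 0.60, and Foxp3 and Gzma had 0.04. These values describe libraries that share treatment groups and 1 library with high values, and carry no test. Among 14279 other genes with a mean of at least 1 CPM, the most like Cd3e were Cd3g (r = 0.95) and Cd3d (0.93), which encode chains of the same complex. The most like Cd8a was Ccl5 (0.91), a chemokine, then Ctsw (0.91), and the most like Cd8b1 was Ms4a4b (0.92). Cd4 was closest to Pik3cd (0.91), Foxp3 to Il2rg (0.87), the shared chain of cytokine receptors, and Tbx21 to Il2rb (0.89). Gzmb was closest to Art2a (0.85), Gzma to Apol7e (0.80) and Gata3 to Ccdc88b (0.80). Without the first Smox-/- spermidine library, Cd3e and Cd3g had r = 0.93 over 29 libraries, Cd8a and Ccl5 0.89 and Foxp3 and Il2rg 0.83.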

How the data were processed

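Total RNA of 30 colon samples was purified on RNeasy columns and sequenced on an Illumina NovaSeq6000 after a directional NEBNext Ultra II library preparation, per the labels' protocols. The authors deposited one table of expected counts (estimated counts per gene, whole numbers), made with fastp and Salmon against GRCm38, per the submitters' processing notes, which also name DESeq2. Versions and settings are not given in the sources used here. Salmon shares reads between similar transcripts, which can move counts between close paralogs. Gene positions come from GENCODE vM21 and promoter windows from RefSeq (GRCm38.p6).

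Groups follow the sample titles. The test was edgeR 4.0.16's quasi-likelihood F test under R 4.3.3, with TMM scaling, filterByExpr (minimum count 10, minimum total 15), which kept 19558 genes, 1 mean per group over 30 libraries and 20 residual degrees of freedom, a robust fit, Benjamini-Hochberg adjustment over all genes tested at 0.05, in 22 comparisons. CPM used TMM-scaled totals, and log2 CPM a prior count of 2. The procedure was tested on simulated data. Alternatives were RLE in place of TMM, leaving low genes in, requiring 1 CPM in 3 libraries, DESeq2 1.42.0, fits of only the groups compared, and leaving out libraries; leaving out the first Smox-/- spermidine library together with the 2 atypical ones was chosen after seeing the data. The 9 genes and all lists were chosen with earlier results of these data known. Besides the 9 genes, up to 3 called genes of a list with the smallest adjusted p, and the 3 genes most correlated with each of the 9, could be named. Some genes that this rule names are not reported here.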

Additional observations from a re-analysis of the deposited data

How the results depend on the processing

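Of 3080 values of single genes under the alternatives, 3009 kept their side of the threshold, 36 lost a call, 35 gained one and none changed sign with a call, while 183 changed sign where neither value passed; the cause was not tested. The number of the 9 genes called changed as follows. For Smox-/- against WT in the mean of conditions (4 called), it was 8 without the 2 atypical libraries (the third untreated WT and the first Smox-/- AOM-DSS spermidine library), 7 by DESeq2, and 2 to 8 with 1 library left out. Calls over all genes in these settings were 1485, 2169 and 669 to 1777. DESeq2 called 1 in untreated colon and 2 with spermidine alone, beside 2689 and 231 of all genes. For AOM-DSS, 0 were called in the mean without the 3 libraries that stand apart, 2 in WT mice with spermidine in a fit of those groups alone, and 3 by DESeq2 in Smox-/- mice with spermidine. Calls over all genes in these settings were 2432, 2436 and 749. In WT tumors 3 were called in a fit of those groups alone and 2 by DESeq2, and in Smox-/- tumors 1 by each, with 0 to 1 with 1 library left out. Over all genes the same settings called 7459 and 7584 in WT tumors. In Smox-/- tumors they called 3087 and 6036, and 990 to 6117 with 1 library left out. A filter of 1 CPM in 3 libraries removed Cd8b1 and Tbx21. Leaving out libraries also changed the number of genes tested.

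Calls over all genes moved more. In untreated colon 1164 genes were called, 2689 by DESeq2, 592 without a filter, 1 in a fit of those groups alone, 32 and 63 without the 2 or 3 libraries, and 6 to 1351 with 1 left out. For the genotype mean (1131) DESeq2 called 2169, the fit of those groups alone 863, and 669 to 1777 were called with 1 left out; for the AOM-DSS mean (4086) 2432 were called without the 3 libraries. No paired analysis was possible because the labels number the samples serially and give the groups no shared replicate numbers.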
